A study of Mus musculus with 58 samples.

Results

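The voltage-gated sodium, voltage-gated calcium and hyperpolarization-activated (HCN) channel genes were followed across 6 combinations of genotype and drug in mouse prefrontal cortex. Members were all protein-coding genes whose symbol names a sodium channel pore or beta subunit (Scn and a number, then a or b), a calcium channel pore (Cacna1 with a letter), an alpha2delta subunit (Cacna2d1 to Cacna2d4), a calcium channel beta subunit (Cacnb1 to Cacnb4) or an HCN pore (Hcn and a number). Of 18088 genes in the deposited table, 34 were members. Of these, 33 passed the filter on low values, which kept genes with at least 10 normalized reads in at least 4 libraries. The retinal L-type pore gene Cacna1f, with a mean of 5.38 normalized reads over the 58 libraries, was not kept. The annotation holds 2 more symbols that match, Scn4a and Scn11a, which were not analysed here.

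Polyadenylated RNA was sequenced from 58 C57BL/6J mice killed at postnatal day 25. Tanc2 encodes a scaffold protein of the excitatory synapse. The labels give each mouse as WT (wild type) or HT (1 changed copy of Tanc2). Over 3 weeks, from postnatal day 3 to day 24, nursing pups took in vehicle or 1 of 2 drugs with the milk: fluoxetine, which blocks serotonin reuptake, or lithium, used as a mood stabilizer. There were 9 WT vehicle, 10 HT vehicle, 10 WT fluoxetine, 10 HT fluoxetine, 10 WT lithium and 9 HT lithium mice. Each arm held 5 females and 5 males, but there were 4 males in the WT vehicle arm and in the HT lithium arm. The labels tie no mouse to a litter, although the drug reached whole litters, so the p-values treat pups as independent. All 3 HT arms carried the same allele and all drug arms were nursed by treated mothers.

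Sodium channels carry the inward current that starts and propagates the action potential, and their beta subunits set where and how fast the pores act. Calcium channels turn depolarization into calcium entry: L-type pores signal to the nucleus, P/Q-, N- and R-type pores serve transmitter release and dendritic calcium, and T-type pores open near rest and favour bursts. Their alpha2delta and beta subunits bring the pores to the membrane. HCN channels open on hyperpolarization and, in cortical pyramidal cells, their current limits how dendritic inputs add up over time. In bulk tissue, fewer cells of a type and less RNA per cell cannot be told apart.

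The sequences before the starts of Hcn2 and Cacnb2 are shown because these genes gave the smallest adjusted p-values among the members that had an entry in RefSeq's promoter table (GRCm38.p6). Hcn2 starts on chromosome 10 and its window is chr10:79716384-79716633, plus strand. Cacnb2 has 2 entries on chromosome 2, of which the first, chr2:14604056-14604305, plus strand, is shown. Each window holds the 250 bases before the annotated start, and capitals mark the GC box GGGCGG on either strand.
Hcn2: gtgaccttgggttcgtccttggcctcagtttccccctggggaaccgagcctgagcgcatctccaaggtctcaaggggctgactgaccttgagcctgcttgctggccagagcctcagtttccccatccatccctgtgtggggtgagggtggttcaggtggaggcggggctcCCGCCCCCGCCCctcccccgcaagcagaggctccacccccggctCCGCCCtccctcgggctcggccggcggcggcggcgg
Cacnb2: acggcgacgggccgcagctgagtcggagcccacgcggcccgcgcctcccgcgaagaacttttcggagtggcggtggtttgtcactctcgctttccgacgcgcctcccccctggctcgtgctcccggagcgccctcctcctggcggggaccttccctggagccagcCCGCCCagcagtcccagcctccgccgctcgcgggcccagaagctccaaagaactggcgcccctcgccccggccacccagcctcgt
The Hcn2 window was 70.4% G or C with 16 CpG sites and 3 GC boxes. The Cacnb2 window was 73.2% G or C with 30 CpG sites and 1 GC box. Over all 32851 entries the medians were 52.4% and 6 CpG sites. A GC box was found in 32.7% of all windows of this length and in 15 of the 34 windows of members (44.1%), which came from 24 members. The letters TGACGTCA, the full cyclic-AMP response element, were found on either strand in 0 of the 34 windows and in 1.55% of all windows. These matches describe the letters only.

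Levels are given as normalized reads per kilobase of the longest protein-coding transcript, averaged over all 58 libraries. Among the sodium pores, Scn2a (Nav1.2 of excitatory axons) had 1333, Scn8a (Nav1.6 of the axon initial segment) 1009, Scn1a (Nav1.1, prominent in inhibitory neurons) 511 and the early-expressed Scn3a 195. As shares of these 4 brain pores, per kilobase, Scn2a made up 43.7% ± 1.04 (SD, n = 58), Scn8a 33.1% ± 1.20, Scn1a 16.7% ± 0.68 and Scn3a 6.49% ± 1.08. Scn7a (25.3) and the sensory neuron pores Scn9a (6.42) and Scn10a (1.70) were far lower per kilobase. Among the sodium beta subunit genes, Scn2b had 1562 per kilobase, Scn3b 926 and Scn4b 242.

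**Figure D1:**
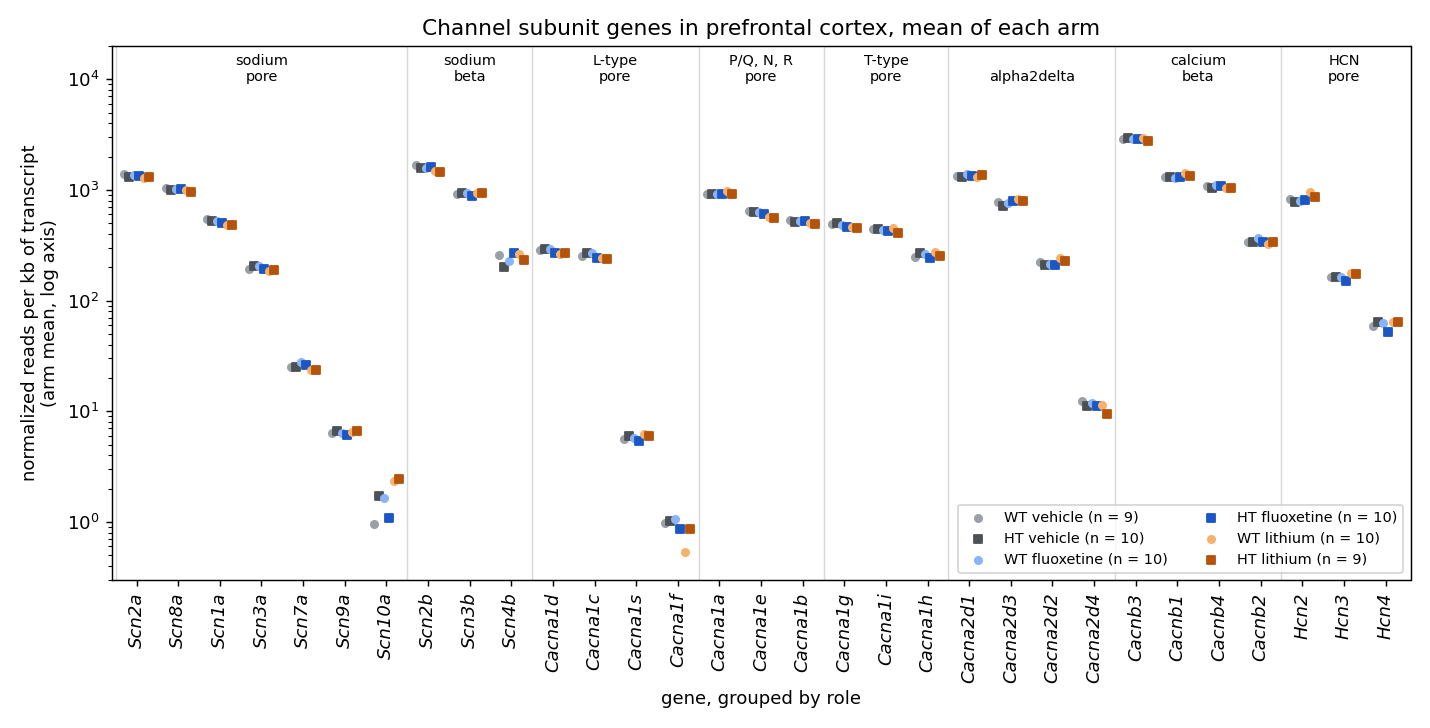
Arm means of normalized reads per kilobase of transcript (y axis, log scale) for 31 of the 34 genes, grouped by role and ordered by level (x axis), with 1 symbol for each of the 6 arms. Symbols of the 6 arms nearly coincide for most genes, while levels between the genes drawn run from 2879 for Cacnb3 to 0.88 for Cacna1f.

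Among the calcium pores, the P/Q-type gene Cacna1a was highest per kilobase (928), followed by the R-type Cacna1e (607), the N-type Cacna1b (513) and the T-type genes Cacna1g (475), Cacna1i (434) and Cacna1h (258). The brain L-type genes Cacna1d (279) and Cacna1c (253) lay close together, and the skeletal muscle gene Cacna1s was at 5.83. Cacna2d1, the main gabapentin-binding alpha2delta gene, had 1339 per kilobase, Cacna2d3 776, Cacna2d2 221 and Cacna2d4 11.2. Cacnb3 was the leading calcium beta subunit gene (2879), with Cacnb1 at 1327, Cacnb4 at 1065 and Cacnb2 at 342. Hcn2 stood at 838 per kilobase against 165 for Hcn3 and 60.8 for Hcn4. Hcn2 thus made up 67.6% ± 2.47 (SD, n = 58) of the HCN transcripts per kilobase. Hcn3 made up 13.4% ± 1.27.

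Most members varied little between mice. The residual standard deviation on the log2 scale, within the 12 groups of genotype, drug and sex, was under 0.2 for 25 of the 27 members with a mean of at least 300 normalized reads. Its median was 0.14 over those 27 members, against 0.12 over the 12450 genes with a mean of at least 100. Cacnb2 was the steadiest at 0.08, and Scn4b (0.59) and Hcn4 (0.35) were the exceptions. Several members are neighbours in the genome: Scn3a, Scn2a, Scn1a, Scn9a and Scn7a lie in that order on chromosome 2, and Scn2b and Scn4b are 8.33 kb apart on chromosome 9. Neighbours did not share a level: per kilobase, Scn2b exceeded Scn4b (1562 against 242) and Scn2a exceeded Scn9a (1333 against 6.42).

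The shallowest library held 23271044 reads and the deepest 37801615 (median 27912120). Cortical excitatory neuron markers (8 genes, among them Slc17a7) summed to 48406 to 74398 normalized reads in every library. Tanc2 itself was not lower in the HT-labelled mice: arm means were 7541 ± 387 (SD, n = 9) in WT vehicle and 8093 ± 381 (n = 10) in HT vehicle. The log2 difference was 0.10 ± 0.04 (SE, limma unadjusted p = 0.0244, adjusted p = 0.947). It was 0.10 ± 0.04 under fluoxetine (unadjusted p = 0.0237, adjusted p = 0.745) and 0.09 ± 0.04 under lithium (0.0462 and 0.436). Whole-gene reads thus did not check the genotype labels. Reads of the gene Gm10221 were present in 27 libraries: all 19 lithium libraries, 5 HT fluoxetine females and 3 WT fluoxetine females, and in 0 vehicle libraries. The mitochondrial gene mt-Atp6 averaged 52088 normalized reads in libraries with them and 23274 in those without. Striatal markers (7 genes, among them Drd1 and Adora2a) summed to 7304 to 14776 in 5 libraries, none of them vehicle, and to 2394 to 5044 in the other 53.

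Genotype was compared within each drug arm to ask whether Tanc2 heterozygosity shifted these channels. No member passed an adjusted p of 0.05 in limma in any of the 3 arms, and neither did any of the 17925 genes tested (percent called 0% in each). Both edgeR and DESeq2 on the recovered reads also called 0 of 33 members in each arm. At an unadjusted p under 0.05 there were 0 of 33 members under vehicle (4.54% of all genes), 2 under fluoxetine (6.21%) and 3 under lithium (11.2%). The smallest p under vehicle belonged to Hcn2 (log2 difference HT minus WT -0.09 ± 0.06 SE) and Cacna2d3 (-0.12 ± 0.07). Under fluoxetine they belonged to Cacnb2 (-0.10 ± 0.03) and Hcn3 (-0.10 ± 0.05), and under lithium to Cacna1i (-0.14 ± 0.04) and Hcn2 (-0.16 ± 0.06), all with adjusted p of at least 0.219.

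The intervals bound what could be missed. Under vehicle, the 95% interval of the genotype difference lay within ±0.5 log2 units for 26 of the 27 members with a mean of at least 300, Scn4b being the exception. For Scn2a, normalized reads were 10227, 12404 and 13674 (lowest, median and highest) in WT vehicle mice and 10355, 11474 and 13790 in HT vehicle mice. The ranges nearly coincided, and the log2 difference was -0.08 with a 95% interval of -0.22 to 0.06. For Scn1a the values were 3743, 4764 and 5009 in WT and 3940, 4382 and 5066 in HT, a difference of -0.06 with an interval of -0.21 to 0.08. Scn8a ran from 10267 through 12494 to 12876 in WT and from 9954 through 11487 to 12988 in HT (-0.07, interval -0.21 to 0.07).

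Early fluoxetine against vehicle gave no called member in either genotype (limma, 0 of 33 in each, also 0 with edgeR and with DESeq2). The background was 1.38% of all genes called in WT (0.469% higher, 0.915% lower) and 3.54% in HT (1.46% higher, 2.09% lower). At an unadjusted p under 0.05 there was 1 member of 33 in WT (10.5% of all genes) and 6 in HT (17.0%). In WT the smallest p belonged to Cacnb2, a beta subunit of cardiac and neuronal channels (0.10 ± 0.04 SE, adjusted p = 0.234), and to Scn10a (0.58 ± 0.39), whose arm means were only 6.43 normalized reads in WT vehicle and 11.05 in WT fluoxetine. In HT it belonged to Hcn3 (-0.12 ± 0.05, adjusted p = 0.134) and Cacna1g (-0.11 ± 0.04, adjusted p = 0.148). The immediate early genes on the marker list (6 genes, among them Arc and Fos), a sign of recent activity, moved in the same comparisons: 4 of 6 were called lower in WT and 4 of 6 in HT. Their part in the channel values was not tested.

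Between lithium and vehicle libraries, which also differ in Gm10221 reads, single members differed in each genotype. In WT mice Hcn2 was called higher, 1 of 33 members called, where 7.47% of all genes tested were called (4.34% higher, 3.13% lower). In HT mice the T-type pore Cacna1g and the R-type pore Cacna1e were called lower, 2 of 33 members, where 16.3% of all genes were called (8.25% higher, 8.03% lower). The shares of members called were 3.03% and 6.06%, below the background in both genotypes. At an unadjusted p under 0.05 there were 6 of 33 members in WT (20.5% of all genes) and 7 in HT (29.1%). The called genes lie at 10:79716634-79736108 (Hcn2), 11:94408391-94474198 (Cacna1g) and 1:154390731-154884501 (Cacna1e) in GRCm38. Median log2 differences over the 33 members were -0.04 in WT and -0.02 in HT, beside -0.01 and 0.00 over all 17925 genes. The sign of these medians was not stable: in WT it was 0.01 with DESeq2, with edgeR and without the length and GC trends, and in HT it was 0.03 without those trends (19 of 33 above 0).

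Hcn2, which encodes the HCN pore most abundant here, had 2502, 2628 and 2727 normalized reads (lowest, median, highest) in WT vehicle mice and 2668, 3146 and 3549 in WT lithium mice. All 10 lithium mice were above the vehicle mean of their sex and 8 of the 10 exceeded every vehicle mouse. The log2 difference was 0.22 ± 0.06 (SE), 16.5% higher, with limma adjusted p = 0.0079. In HT mice Hcn2 ran 2192, 2390 and 2907 under vehicle and 2279, 2705 and 3200 under lithium, and 8 of 9 lithium mice were above the vehicle mean of their sex. That difference was 0.15 ± 0.06 and missed the threshold (adjusted p = 0.0531), which it passed with an additive sex term (0.0413), with a filter of 50 (0.0465) and without any 1 of 5 libraries (HT lithium female 1, female 3 or male 2, HT vehicle female 2 or male 3). The genotypes were not shown to differ in this response: the interaction was -0.07 ± 0.08 with an interval of -0.23 to 0.09.

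Cacna1g, the T-type pore of thalamocortical and cortical bursting, had 3919, 4146 and 4583 normalized reads in HT vehicle mice and 3367, 3731 and 4207 in HT lithium mice. Of the 9 lithium mice, 8 lay below all 10 vehicle mice and 1 lay within their range. The log2 difference was -0.15 ± 0.04 (9.7% lower, adjusted p = 0.0115). In WT mice the values were 3672, 4092 and 4307 under vehicle and 3529, 3822 and 4377 under lithium, with overlapping ranges and a difference of -0.08 ± 0.04 (adjusted p = 0.263). Cacna1e, the R-type pore of dendritic spines, had 8356, 9341 and 10172 in HT vehicle mice and 6273, 8819 and 9434 in HT lithium mice. Here 7 of 9 lithium mice were below the vehicle mean of their sex and 4 were below every vehicle mouse. The HT difference was -0.18 ± 0.06 (adjusted p = 0.0345). In WT mice Cacna1e showed -0.18 ± 0.06 as well, which missed the threshold (adjusted p = 0.0543), with 8800, 9731 and 10350 under vehicle against 7640, 8436 and 9718 under lithium. The interaction for Cacna1e was 0.00 ± 0.09.

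Marker lists also moved between lithium and vehicle. In HT, thalamic markers had 0 of 3 above 0 (median -0.22, 1 called lower), with sums of 414 to 590 in lithium and 537 to 704 in vehicle mice. Smooth muscle and pericyte markers had 1 of 5 above 0 (median -0.22, 2 called lower), and immediate early genes 0 of 6 (median -0.37, 2 called lower). In WT, thalamic markers had 1 of 3 above 0 (median -0.16) and smooth muscle and pericyte markers 0 of 5 (-0.05). The immediate early genes went the other way in WT, with 6 of 6 above 0 (median 0.17), and 0 of these were called. Inhibitory neuron markers had 5 of 5 above 0 in each genotype (0.07 in WT, 0.09 in HT, 0 called). Striatal markers had 7 of 7 above 0 in HT (median 0.32) and in WT (median 0.22), and olfactory bulb markers 5 of 5 in each (0.56 and 0.36), with 0 called. Parvalbumin interneuron markers had 3 of 5 above 0 in each genotype, with 1 called higher in HT and 1 called in each direction in WT. Endothelial markers had 1 of 4 above 0 in WT (1 called lower) and 0 of 4 in HT (median -0.21, 0 called). Myelinating oligodendrocyte markers had 0 of 6 above 0 in WT (median -0.18) and 1 of 6 in HT (median -0.14), with 0 called. Of 8 cortical excitatory markers 1 was called lower in WT and 1 higher in HT. With the striatal and olfactory bulb sums as covariates, Hcn2 in WT was 0.20 ± 0.05 (adjusted p = 0.00795), and in HT Cacna1g was -0.14 ± 0.04 (0.0105) and Cacna1e -0.22 ± 0.06 (0.00957). The part of thalamic, vascular and other markers in these values was not tested.

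**Figure D2:**
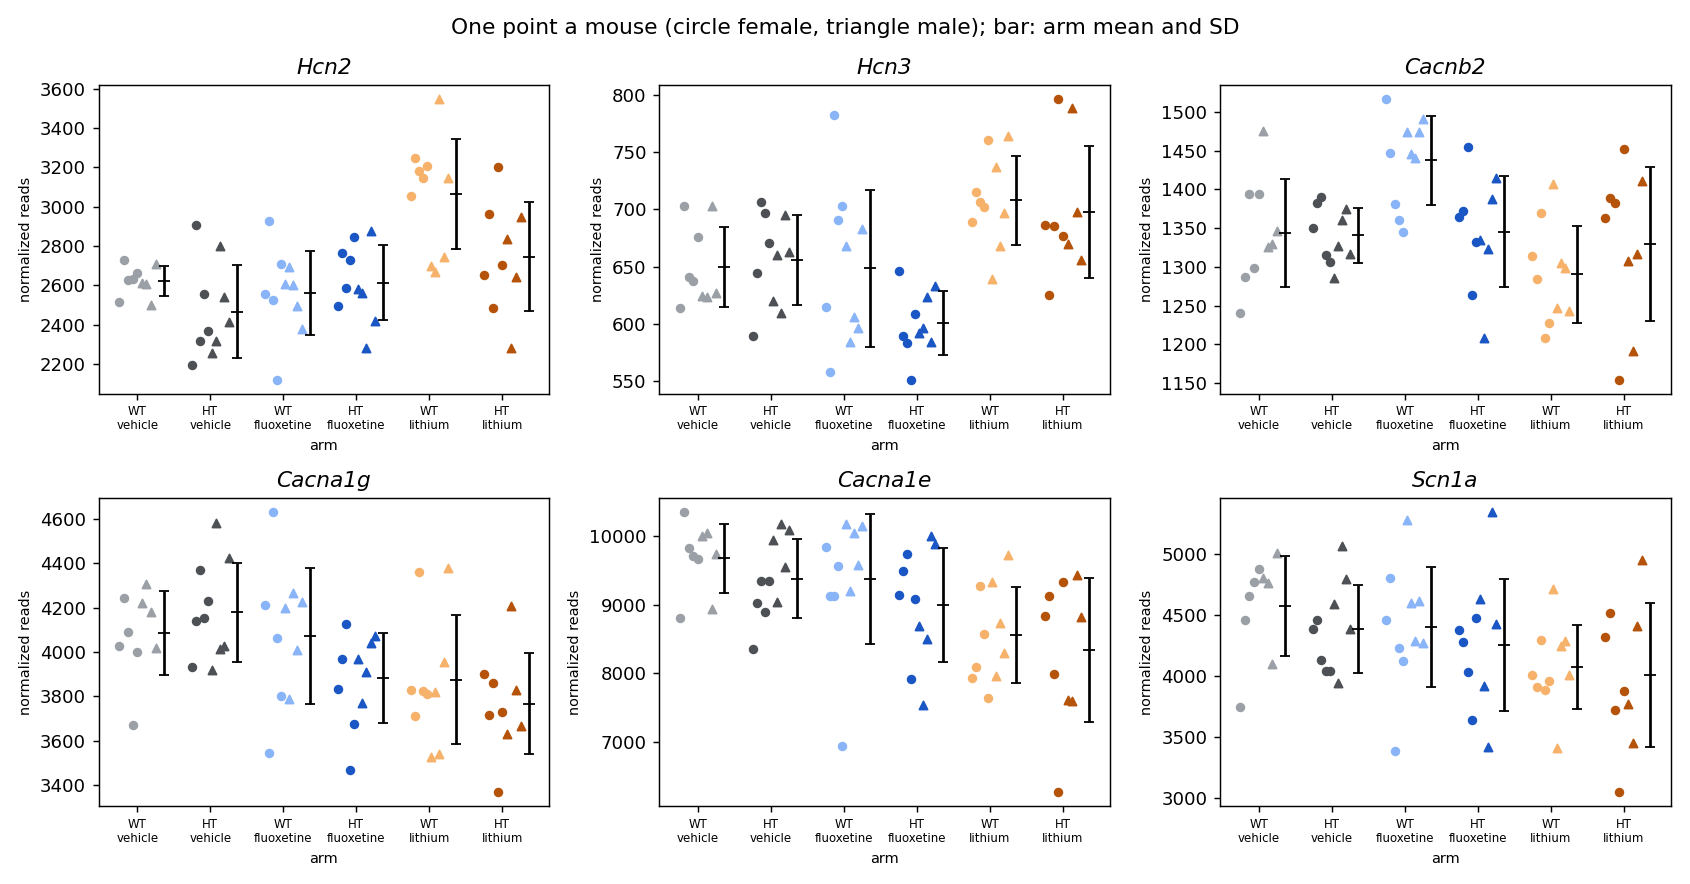
Normalized reads (y axis, linear, not starting at 0) of 6 genes in each mouse by arm (x axis), with circles for females, triangles for males, and a bar for the arm mean and SD. Hcn2 points of WT lithium mice reach from 2668 to 3549, with 8 of 10 above the top of the WT vehicle range of 2502 to 2727, whereas the Scn1a ranges of all arms overlap.

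Of the 6 differences called in all comparisons, 4 were lost when base composition and length were taken out of each library. Removing each library's trends on transcript length and GC content left Hcn2 at 0.01 ± 0.04 for lithium against vehicle in WT (adjusted p = 0.965), Cacna1g at -0.04 ± 0.04 in HT (0.541) and Cacna1e at -0.05 ± 0.04 in HT (0.378). In their place 3 other members were called in HT: Cacna2d2 (0.20 ± 0.06), Cacnb3 (-0.12 ± 0.04) and Hcn3 (0.14 ± 0.05). The share of all genes called in that fit is not given here. A term for libraries with Gm10221 reads, which the vehicle arms lack, left 0 members called in either genotype, with Hcn2 at 0.24 ± 0.08 (adjusted p = 0.209). For lithium against vehicle, drug and the presence of these reads cannot be told apart. Cacna1e also lost its call in HT when any 1 of 7 libraries was left out, with values between -0.21 and -0.13 over all 19 libraries left out in turn.

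Members of high GC content differed from the others in the lithium differences of WT mice. Hcn2 is 65.4% G or C over a 3.195 kb transcript, and Cacna1e is 48.3% over 14.9 kb. Of the 12 members with a GC content of at least 55%, 11 were above 0 for lithium minus vehicle in WT (median 0.12), where all 4159 genes of that range had a median of 0.04. Of the 8 members under 45%, 1 was above 0 (median -0.06), where all 4528 such genes had a median of -0.05. In HT mice the same members gave 7 of 12 and 2 of 8 above 0, with medians of 0.03 and -0.01. The pattern was not graded: the 13 members between 45% and 55%, Cacna1e among them, had a median of -0.07 in WT (4 above 0) and -0.05 in HT (4 above 0), where all 9227 genes of that range had 0.00 in both. The part of base composition in the single calls was not tested beyond the fit without these trends.

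**Figure D3:**
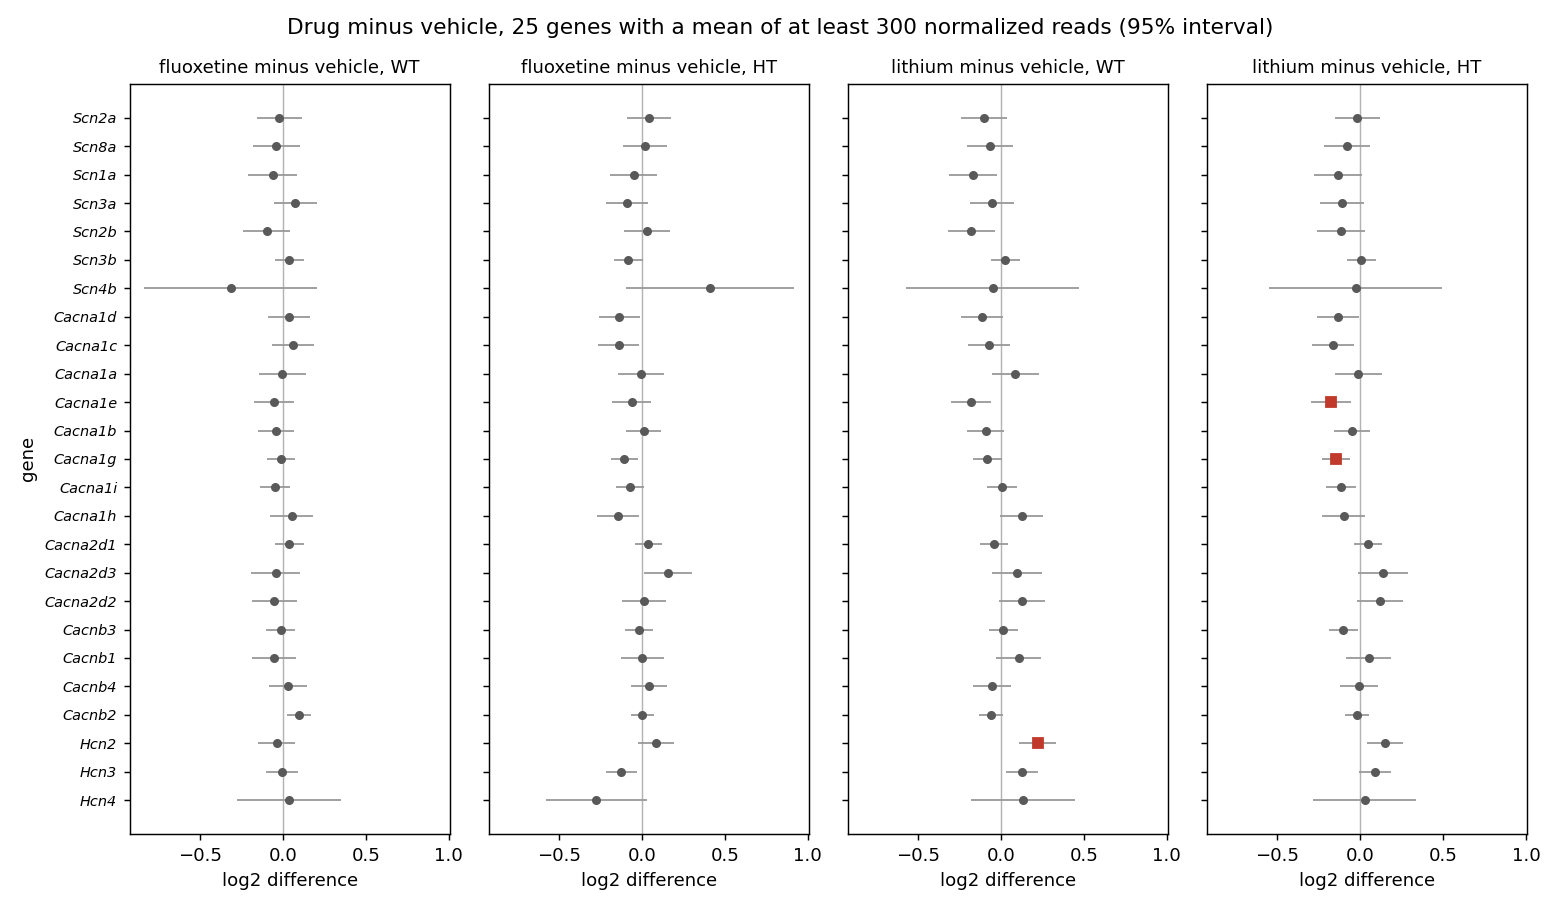
Log2 difference between drug and vehicle (x axis, with 95% intervals) for 25 of the 27 genes with a mean of at least 300 normalized reads (y axis), in WT and HT mice, with red squares for adjusted p under 0.05. The intervals of most genes span 0, and the 3 squares are Hcn2 in WT and Cacna1e and Cacna1g in HT under lithium.

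Lithium was compared with fluoxetine directly, which sets 2 treated arms side by side. In WT mice 2 of 33 members were called (6.06%), Hcn2 higher and Cacnb2 lower under lithium, with 9.55% of all genes called (5.29% higher, 4.26% lower). Both calls held in all 20 fits with 1 library left out, and the count was the same in 19 of them. Without WT fluoxetine female 5 more were called, 8 of 33 members and 2338 of 17925 genes. The share of members thus moved from below that of all genes to above it. In HT mice Hcn3 was called higher, 1 of 33 members (3.03%), with 6.25% of all genes called (3.19% higher, 3.06% lower). At an unadjusted p under 0.05 there were 9 of 33 members in WT (22.8% of all genes) and 4 in HT (21.3%). These comparisons share their lithium mice with those against vehicle and give no independent support to them.

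For Hcn2 the WT fluoxetine mice had 2119, 2579 and 2926 normalized reads and the WT lithium mice the values given above. All 10 lithium mice exceeded the fluoxetine mean of their sex, and the difference was 0.26 ± 0.05 (19.6% higher, adjusted p = 8.9e-04). It held with the Gm10221 term (0.27 ± 0.07, adjusted p = 0.0135) and not without the length and GC trends (0.04 ± 0.04, adjusted p = 0.608). Cacnb2 had 1345, 1447 and 1517 normalized reads in WT fluoxetine mice and 1208, 1291 and 1407 in WT lithium mice. Of the 10 lithium mice, 8 were below every fluoxetine mouse, and the difference was -0.16 ± 0.03 (10.3% lower, adjusted p = 0.0019). It was -0.13 ± 0.03 without the length and GC trends (0.00751) and -0.15 ± 0.04 with the Gm10221 term (0.0391). Among the 5 lithium and 3 fluoxetine WT females with Gm10221 reads alone, Cacnb2 was not called. Over the 18 alternative fits other than single libraries left out, that one among them, its difference ran from -0.19 to -0.13. The WT vehicle median of Cacnb2 lay between those of the 2 drug arms, with 1240, 1330 and 1475. Neither drug passed the test against vehicle (lithium minus vehicle -0.06 ± 0.04).

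Hcn3, an HCN pore with little response to cyclic AMP, had 551, 594 and 646 normalized reads in HT fluoxetine mice and 625, 685 and 797 in HT lithium mice. All 9 lithium mice were above the fluoxetine mean of their sex, and 8 of 9 exceeded every fluoxetine mouse. The difference was 0.21 ± 0.05 (16.03% higher, adjusted p = 0.0043). It was 0.23 ± 0.05 without the length and GC trends (0.0020) and 0.21 ± 0.05 with the Gm10221 term (0.0346). In the HT fluoxetine arm all 5 females and 0 of 5 males had these reads, so the term follows sex there. Among females with Gm10221 reads alone, Hcn3 was not called. The HT vehicle mice, with 589, 661 and 706, had a median between these, and lithium minus vehicle was 0.09 ± 0.05 in HT (adjusted p = 0.212) and 0.12 ± 0.05 in WT (0.111). In WT the lithium minus fluoxetine difference of Hcn3 was 0.13 ± 0.05 (adjusted p = 0.0643).

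Markers of neighbouring tissue moved with these contrasts in 1 genotype and little in the other. For lithium minus fluoxetine in WT, all 7 striatal markers were above 0 (median 0.63, 1 called), with sums of 3365 to 14165 in lithium and 2394 to 4712 in fluoxetine mice. For the same contrast in HT, all 5 olfactory bulb markers were above 0 (median 1.3, 0 called), with sums of 278 to 5579 in lithium and 89.9 to 7301 in fluoxetine mice. Striatal markers in HT had 5 of 7 above 0 (median 0.02) and olfactory bulb markers in WT 4 of 5 (median 0.06), with 0 called. None of these marker genes had a mean under 10. Parvalbumin interneuron markers had 4 of 5 above 0 in WT (median 0.37, 2 called higher) and 2 of 5 in HT (median -0.01, 0 called). In HT, endothelial markers had 0 of 4 above 0 (median -0.29, 3 called lower), with sums of 2531 to 3578 in lithium and 3006 to 4850 in fluoxetine mice, and microglial markers had 0 of 5 above 0 (median -0.10, 1 called lower). In WT, endothelial markers had 4 of 4 above 0 (median 0.08) and microglial markers 3 of 5 (median 0.07), with 0 called. Myelinating oligodendrocyte markers had 0 of 6 above 0 in HT (median -0.21) and 3 of 6 in WT (median 0.01), with 0 called. The part of these cell types in the channel values was not tested. With both marker sums as covariates, Hcn2 was 0.23 ± 0.05 (adjusted p = 0.0022) and Cacnb2 -0.19 ± 0.04 (4.3e-04) in WT, and Hcn3 was 0.19 ± 0.04 (0.0037) in HT. Without the 5 libraries high in striatal markers they were 0.23 ± 0.05, -0.18 ± 0.04 and 0.23 ± 0.05, each with adjusted p under 0.05. The immediate early genes were higher under lithium than under fluoxetine, 5 of 6 called in WT and 3 of 6 in HT, and their part was not tested.

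**Figure D4:**
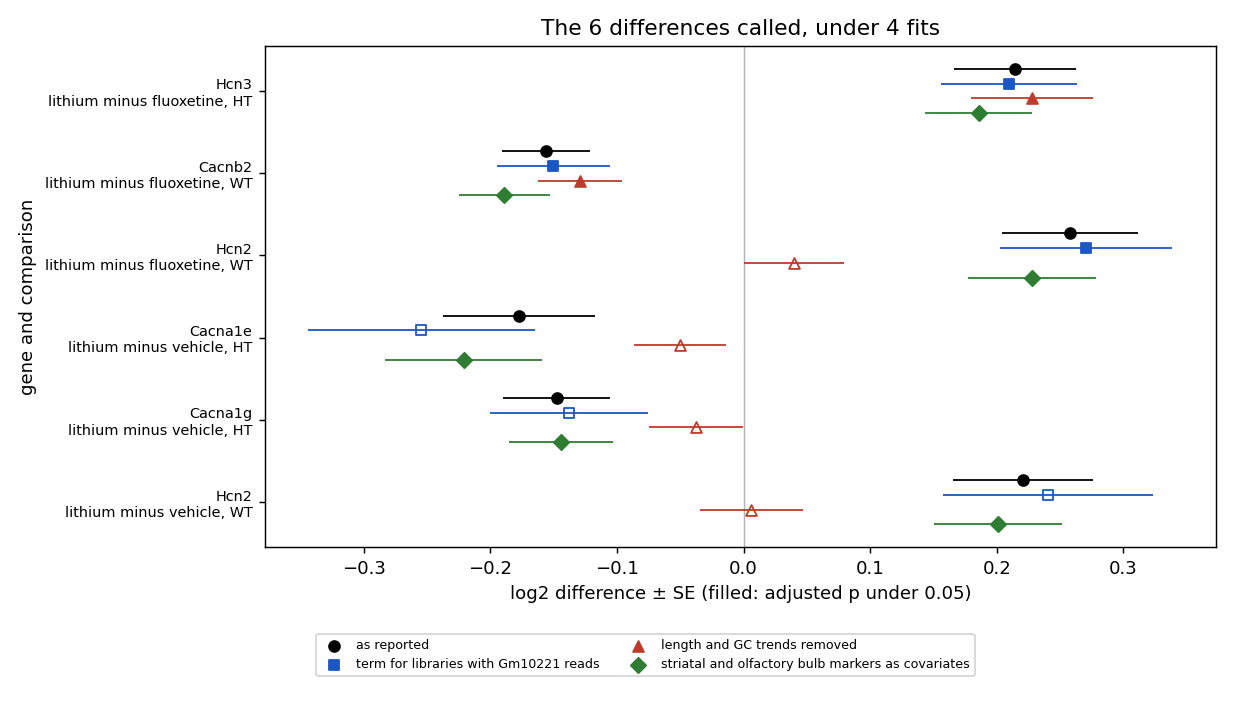
Log2 difference ± SE (x axis) of the 6 differences called (y axis) under 4 fits, filled where the adjusted p was under 0.05. Cacnb2 and Hcn3 in lithium against fluoxetine stay filled in all 4 fits, while both Hcn2 differences move to 0.01 and 0.04 without the length and GC trends. Neither Cacnb2 nor Hcn3 was called among females with Gm10221 reads alone, a fit of fewer mice that is not drawn.

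Because HCN pores are read here as a family, their makeup is given as shares of HCN transcripts per kilobase. In WT mice Hcn2 took 67.4% ± 1.0 (SD, n = 9) under vehicle and 69.8% ± 2.04 (n = 10) under lithium. In HT mice Hcn2 took 66.0% ± 2.26 (n = 10) and 67.5% ± 2.67 (n = 9). Hcn4, the pacemaker pore of the heart, differed by 0.13 ± 0.16 in WT and 0.03 ± 0.16 in HT. The shares were not tested.

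The other best known members did not pass in any comparison as reported. With the striatal and olfactory bulb sums as covariates, Cacna1c passed for lithium minus vehicle in HT (-0.18 ± 0.04, adjusted p = 0.0014) and for lithium minus fluoxetine in WT (-0.13 ± 0.04, 0.0329), and Scn1a passed for lithium minus vehicle in WT (-0.20 ± 0.06, 0.0461). Cacna1c also passed for lithium minus fluoxetine in WT with the Gm10221 term (-0.25 ± 0.08, 0.0385) and without WT fluoxetine female 5 (-0.18 ± 0.06, 0.0395), and for lithium minus vehicle in HT without HT vehicle female 2 (0.0424) or HT vehicle male 1 (0.0489). Scn1a had 3409, 4007 and 4713 normalized reads in WT lithium mice, and its difference from vehicle, -0.17 ± 0.07 in WT (adjusted p = 0.155) and -0.13 ± 0.07 in HT (0.213), missed the threshold. For Scn2a lithium minus vehicle was -0.10 ± 0.07 in WT and -0.02 ± 0.07 in HT, and for Scn8a -0.07 ± 0.07 and -0.08 ± 0.07. Cacna1a ran 6387, 7361 and 8025 in WT vehicle and 6541, 7694 and 9323 in WT lithium mice (0.09, interval -0.06 to 0.23). Cacna1c, the L-type pore of most brain L-type current, ran 3110, 3534 and 4072 in HT vehicle and 2539, 3295 and 3399 in HT lithium mice (-0.16 ± 0.06, adjusted p = 0.0702). Cacna2d1 differed by -0.04 ± 0.04 in WT and 0.05 ± 0.04 in HT, and Cacnb4 by -0.06 ± 0.06 and -0.01 ± 0.06. For fluoxetine minus vehicle, Cacna1a was at 0.00 ± 0.07 in both genotypes, with intervals of -0.15 to 0.14 in WT and -0.14 to 0.13 in HT.

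Whether genotype changed a drug response was tested as an interaction. None of the 33 members, and none of all 17925 genes (0%), passed for fluoxetine or for lithium in limma. Neither edgeR nor DESeq2 called a member, and at an unadjusted p under 0.05 there were 2 of 33 members for fluoxetine (6.29% of all genes) and 1 for lithium (6.67%). For fluoxetine the smallest p belonged to Cacna1c (-0.20 ± 0.09) and the T-type pore Cacna1h (-0.20 ± 0.09). For lithium it belonged to Cacna1h (-0.22 ± 0.09) and Cacnb3 (-0.12 ± 0.06). The median standard error of the interaction was 0.09 over the 27 members with a mean of at least 300, against 0.06 for a drug effect within a genotype.

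Sex differences in the effects were tested for the 9 comparisons between arms. None of the 33 members was called in any of them, and 0 to 2 of all genes were. The smallest p belonged to the alpha2delta gene Cacna2d2 for lithium minus fluoxetine in WT: 0.33 ± 0.09 in females and 0.02 ± 0.09 in males, a difference of 0.31 ± 0.13 (adjusted p = 0.592). In that comparison 2 of 33 members had an unadjusted p under 0.05, beside 7.89% of all genes. In each of the other 8 comparisons 0 members did. The shares of all genes were 1.82%, 2.95% and 3.84% for genotype under vehicle, fluoxetine and lithium, 1.84% and 4.26% for fluoxetine minus vehicle in WT and HT, 2.63% and 2.85% for lithium minus vehicle, and 5.12% for lithium minus fluoxetine in HT. In the fluoxetine arms, 5 of 5 HT females, 3 of 5 WT females and 0 of 5 males of each genotype had Gm10221 reads. In comparisons with a fluoxetine arm, sex and these reads cannot be told apart in HT, and only partly in WT. Contrasts within 1 sex came from the same fit of all 58 libraries and are called females alone and males alone below. For lithium minus vehicle, Hcn2 in WT was 0.27 ± 0.08 in females and 0.17 ± 0.08 in males, neither with an adjusted p under 0.05.

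Partner genes of these channels were counted from a list of 33, of which 32 were tested and Kcne2 was not in the table. Under fluoxetine 1 of 32 was called in WT (lower) and 1 in HT (higher), 3.13% in each, beside 1.38% and 3.54% of all genes. Lithium against vehicle called 4 of 32 in WT (2 higher, 2 lower) and 8 of 32 in HT (2 higher, 6 lower), shares of 12.5% and 25.0% beside the backgrounds of 7.47% and 16.3%. Lithium against fluoxetine called 5 in WT (3 higher, 2 lower) and 4 in HT (0 higher, 4 lower). The shares were 15.6% and 12.5% beside 9.55% and 6.25% of all genes. Cacng8 encodes an AMPA receptor auxiliary subunit of the calcium channel gamma family. For lithium minus vehicle it rose by 0.30 ± 0.06 in WT (adjusted p = 0.00136) and 0.28 ± 0.06 in HT (0.0015). Cacng2 (stargazin) rose by 0.21 ± 0.05 in both genotypes under lithium and by 0.21 ± 0.05 in HT under fluoxetine. The ryanodine receptor genes, which release calcium from internal stores, were lower in HT lithium mice: Ryr1 differed by -0.40 ± 0.09, Ryr2 by -0.24 ± 0.06 and Ryr3 by -0.34 ± 0.09, all called. Rims1, a presynaptic scaffold at release sites, was lower in both genotypes (-0.30 ± 0.09 in WT, -0.28 ± 0.09 in HT). The values of these partners under the alternative fits are not given here, and the same length, GC and Gm10221 limits apply to lithium.

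Scn4b, which encodes the beta subunit tied to resurgent sodium current, was singled out after its values were seen, because it varied most among the well expressed members. Its highest mice were 1 HT lithium female (3502 normalized reads), 1 WT lithium male (2868) and 1 HT fluoxetine male (2542). The arm medians were far lower, at 771 in HT lithium, 1176 in WT lithium and 1300 in HT fluoxetine mice. These 3 mice were among the 5 libraries with the highest striatal marker sums, at 14776, 14165 and 7304. The other 2 of those 5, a WT lithium male (sum 8452) and an HT fluoxetine male (8389), had 1558 and 1284 normalized reads of Scn4b, within the 365 to 1633 of the remaining 53 libraries. As deviations from group means on the log2 scale, Scn4b and the striatal sum had a correlation of 0.80 over the 58 libraries. The mouse lowest in Scn4b, WT fluoxetine female 3 (365), was also lowest in the striatal sum (2394) and highest in the olfactory bulb marker sum (12777). That olfactory bulb sum was 278, 308 and 150 in the 3 mice highest in Scn4b. It was 125 in HT fluoxetine male 2, with 925 normalized reads of Scn4b, and 7301 in HT fluoxetine male 3, with 1284. The source of the correlation with the striatal sum and the part of the olfactory bulb sum were not tested. For Scn4b, WT vehicle mice had 787, 1392 and 1571 and HT vehicle mice 573, 963 and 1543. The arms overlapped throughout, and no comparison called Scn4b, whose standard errors of 0.25 to 0.26 left intervals as wide as -0.92 to 0.13 for genotype under vehicle.

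**Figure D5:**
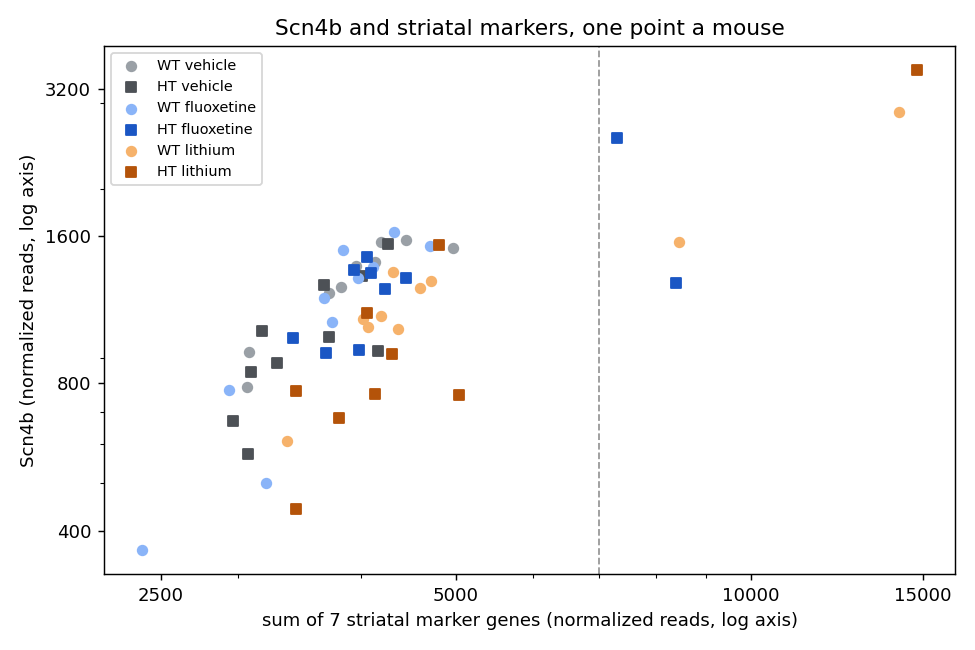
Scn4b (y axis, log scale) against the sum of 7 striatal marker genes (x axis, log scale) in each mouse, both in normalized reads, by arm, with a dashed line at 7000. The 5 libraries right of the line include the 3 highest for Scn4b (2542 to 3502), while the other 53 lie between 365 and 1633.

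The rarest members were too low to weigh. Scn10a ranged from 1.01 to 49.1 normalized reads across libraries and Cacna1s from 13.3 to 80.1, with residual standard deviations of 0.87 and 0.53 on the log2 scale. Scn7a (84.9 to 307), Scn9a (33.1 to 84.1) and Cacna2d4 (37.8 to 93.6) were measurable in every library, and limma called none of these 3 in any of the 11 comparisons. Scn10a, at 1.04 ± 0.39 for lithium minus vehicle in WT, was not called by limma (adjusted p = 0.0978) and was called on the recovered reads by DESeq2 (1.28, adjusted p = 0.0315) and by edgeR (1.27, 0.0464). Over the 11 comparisons and 33 members, 6 of 363 tests were called, and they fell on 5 genes.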

How the data were processed

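Prefrontal cortex RNA of 58 mice was measured by RNA-seq. The authors deposited normalized read counts per gene (a signal scaled by size factors), made with Salmon 0.11.2, R 3.6.0 and DESeq2 1.19.11 on GRCm38, per the submitters' processing notes. In each library 1 read was worth 0.788 to 1.30 normalized units, and 100% of the deposited values came out whole within 0.01, so reads were recovered for the alternatives edgeR 4.0.16 and DESeq2 1.42.0. Depth was 23271044 to 37801615 reads.

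Values were taken as log2(value + 1) and tested with limma 3.58.1 (R 4.3.3, trend) in 1 fit of the 12 groups of genotype, drug and sex, with sexes weighted equally. Fold changes are on that scale and understate changes of low genes. Genes with at least 10 normalized reads in at least 4 libraries were kept (17925 of 18088), and Benjamini-Hochberg adjustment ran over all of them, with a threshold of 0.05, in each of 11 comparisons. Transcript length and GC content came from GENCODE annotation of GRCm38, which held 18077 of the 18088 genes. In the alternative fit, splines on both were removed from each library. Other alternatives changed the tool, scaling, filter, pseudocount, covariates and libraries.

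The members and gene lists were chosen with earlier results of these data known. Named were all members called in any comparison, a set of well known members (Scn1a, Scn2a, Scn8a, Cacna1a, Cacna1c, Cacna2d1 and Cacnb4), the 2 members with the smallest p where none was called, and at most 6 partners by smallest adjusted p. On simulated counts for lithium minus vehicle in WT (17925 genes), the test recovered 24 of 50 genes changed by 0.25 log2 units, 47 of 50 changed by 0.5 and 99 of 100 changed by 1, with 6 false calls. Some members were tested and counted but their values are not reported here.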

Additional observations from a re-analysis of the deposited data

Results flagged for a closer look

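Within each group of 4 or 5 mice of 1 genotype, drug and sex, the highest and lowest mouse was compared with the others by Dixon's ratio for 14 named members. Of 168 such tests 12 passed the 95% critical value, where chance passes about 1 in 20.

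Scn4b was far above the other mice of its group in HT lithium female 2 (3502 normalized reads, others 680 to 1112) and HT fluoxetine male 4 (2542, others 925 to 1367). WT vehicle male 3 stood apart for 3 genes: Cacna1c was high (3694, others 3194 to 3270), Hcn3 was high (703, others 623 to 627) and Scn8a was low (10784, others 12494 to 12667). WT lithium female 3 was high for Cacna1a (9323, others 7435 to 7697) and for Cacna1g (4362, others 3710 to 3829). Cacna1c was also low in HT lithium male 4 (2994, others 3360 to 3399) and high in WT fluoxetine male 5 (4154, others 3152 to 3330). The olfactory bulb marker sum was 5789 in WT vehicle male 3 (others 382 to 1053) and 7231 in WT fluoxetine male 5 (others 143 to 991). It was 1244 in HT lithium male 4 (others 2792 to 3583). In WT lithium female 3 it was 227, within the range of the others (216 to 3037). Its part in these values was not tested. Cacna1e was low in WT fluoxetine female 5 (6947, others 9122 to 9831). Cacna2d1 was high in WT vehicle female 4 (11060, others 9601 to 9760), and Cacnb2 was high in WT vehicle male 1 (1475, others 1326 to 1346).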

How the results depend on the processing

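No member was called for genotype, for fluoxetine against vehicle or for an interaction under any alternative run. For lithium against vehicle in WT, 1 member was called as reported, 2 with edgeR, 3 with DESeq2, 2 with a filter of 50, 2 with quantile normalization and 4 with only the groups compared. It was 0 with the Gm10221 term, 0 without the length and GC trends, 0 in females alone and 0 in males alone, and 1 to 2 when each library was left out. In HT the 2 calls became 3 with a filter of 50, 4 with quantile normalization, 1 with only the groups compared, 0 with the Gm10221 term, 0 in females alone and 0 in males alone, and 1 to 4 with each library left out (4 without HT lithium female 1, HT vehicle female 2 or HT vehicle male 1, and 1 without HT lithium female 4 or HT vehicle female 3, female 5 or male 5). For lithium against fluoxetine in WT, the 2 calls became 7 with the Gm10221 term and 4 in females with Gm10221 reads. Hcn2 was among those 4 and Cacnb2 was not. The 2 calls became 1 without the length and GC trends and 1 in males alone, and 2 to 8 with each library left out (8 without WT fluoxetine female 5). In HT the 1 call became 0 in females with Gm10221 reads, 2 without the length and GC trends, 0 in females alone and 0 in males alone. Chosen after seeing the data, an additive sex term gave 2 calls for lithium against vehicle in WT and 3 in HT (Hcn2 among them), and marker sums as covariates gave 5 there, 5 in HT and 6 for lithium against fluoxetine in WT. Scn10a for fluoxetine against vehicle in WT turned to -0.0343 in males alone. The counts in this paragraph are given without the share of all genes called in each fit. They do not say whether members moved more than other genes. The cause of the shifts between fits was not tested.

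Replicate numbers did not pair the mice: deviations of same-numbered mice had a mean correlation of 0.00 over 309 pairs. With the replicate number as a block, the counts were 1 and 2 for lithium against vehicle in WT and HT, 2 and 1 against fluoxetine, and 0 elsewhere.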
